A study of Mus musculus with 6 samples.

Results

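Circular RNAs (circRNAs) of 5 genes whose proteins bind RNA or act in RNA decay were measured in mouse striatum. The host genes, whose transcripts give rise to the circRNAs, are Upf2, Gigyf2, Fxr2, Hnrnpab and Ccar1. The 6 circRNAs described, of 14236 on the array, are 2 of Hnrnpab and 1 of each other gene. A gene name was at hand for 721 of the 14236, so these genes may have others on the array. The 6 were selected on their measured values in these same arrays and on their host genes. Their differences between the groups are therefore given as descriptions, with no test. Striata of 3 HuD-OE mice and of 3 WT littermates were compared, each mouse on its own Arraystar Mouse circRNA Array V2. All were adult male mice on a C57BL6 background. In the HuD-OE line a myc-tagged HuD transgene is driven by the Camk2a promoter, which is active in forebrain neurons, and WT mice lack it. The total RNA of both groups was treated with RNAse R, an exonuclease that digests linear RNA, before labeling with Cy3.

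A circRNA forms when a downstream splice donor of a pre-mRNA is joined to an upstream acceptor, which closes 1 or more exons into a ring without free ends. The join is called the back-splice junction, and array probes are placed across it because the linear transcript lacks that order of bases. HuD, the product of Elavl4, is a neuronal RNA-binding protein that binds AU-rich stretches and stabilizes many of its target mRNAs. The host genes act in neighbouring steps of RNA life. UPF2 is a core factor of nonsense-mediated decay, GIGYF2 represses translation together with a cap-binding partner, FXR2 belongs to the fragile X family of ribosome-associated proteins, and hnRNP A/B packages nascent and transported RNA. CCAR1 is a transcriptional coactivator that has also been found with splicing factors.

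The study lists circRNAs enriched in pull-downs of the myc-tagged protein from HuD-OE striatum. The copy used here, called the bound list, holds 658 and is shorter than the full list. Those of Upf2, Fxr2 and both of Hnrnpab are on it. The circRNAs of Gigyf2 and Ccar1 were named through a deposited table of 69 circRNAs that the authors called higher in HuD-OE mice on these arrays at a fold limit of 2 per its header, stricter than the limit used below. No probe with a gene name used here belongs to Elavl4, so the transgene was not checked on the arrays. A gene name was at hand only for 721 of the 14236 circRNAs, taken from the bound list and the authors' deposited tables. Among these named circRNAs, 4 of 13 genes listed as markers of striatal projection neurons had a tested one. Of their 8 circRNAs, 6 were well above background on all 6 arrays. A tested and named circRNA was found for 1 of 5 astrocyte genes, and for none of the 5 oligodendrocyte or 4 microglia genes. Whether unnamed probes on the arrays belong to these marker genes is not known. The 8 neuronal marker circRNAs had log2 fold changes of 0.042 to 1.23 and the astrocyte one of -0.094. All of them are on the bound list, whose tested circRNAs had a median of 0.27, and the median over all tested circRNAs was 0.15. Without WT 3 the 8 ranged from -0.25 to 0.63, with Pde7b 21737 and Foxp1 40607 (-0.10) below 0. The part of cell composition in the results was not tested.

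The probed junctions of the 6 circRNAs are shown because the arrays tell a circRNA from its linear transcript by these 60 bases. They are given as the study's tables print them, with the hexamer GAAGAA in capitals.
Upf2 32914: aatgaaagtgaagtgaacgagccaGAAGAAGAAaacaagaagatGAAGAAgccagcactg
Gigyf2 20485: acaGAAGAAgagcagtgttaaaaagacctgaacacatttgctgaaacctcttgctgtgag
Fxr2 005799: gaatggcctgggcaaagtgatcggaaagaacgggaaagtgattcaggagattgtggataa
Hnrnpab 23306: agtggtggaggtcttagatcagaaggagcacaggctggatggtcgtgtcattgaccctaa
Hnrnpab 23305: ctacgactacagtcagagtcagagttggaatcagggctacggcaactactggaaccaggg
Ccar1 22102: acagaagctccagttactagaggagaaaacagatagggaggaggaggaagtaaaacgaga
The number after each gene is the circRNA's number in the array's naming. All 6 are annotated as exonic. Upf2 32914 spans chromosome 2 from 5982992 to 6034251 on the plus strand, and Gigyf2 20485 spans chromosome 1 from 87334270 to 87365279 on the plus strand. Fxr2 005799 lies on chromosome 11 from 69649728 to 69651723 on the plus strand. Hnrnpab 23306 runs from 51602593 to 51604817 and Hnrnpab 23305 from 51601750 to 51601890 on the minus strand of chromosome 11. The spans of the Hnrnpab pair do not overlap, and 702 bases lie between them. Ccar1 22102 lies on chromosome 10 from 62746901 to 62751016 on the minus strand. The tables name no genome build, and each of these spans lies inside its host gene in the GRCm38.p6 gene table.

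Each array's intensities were put on a log2 scale. The array's 75th percentile on that scale was then subtracted, so that 0 is the level of its upper quartile spot. These relative log2 intensities compare arrays for 1 probe and not different probes with each other. WT 3 gave a dimmer array than the other mice. Its 75th percentile was 43.4 intensity units, against 77.7 to 127 on the other 5 arrays, and 60.3% of circRNA probes were well above background, against 87.2% to 95.7%. WT 3 was also the only array of its scan. HuD-OE 2 had the next lowest values, 77.7 units and 87.2%. Its Spearman correlation over tested circRNAs was 0.87 with HuD-OE 1 and 0.84 with HuD-OE 3. Those of HuD-OE 1 and HuD-OE 3 with WT 1 and WT 2 were 0.94 to 0.97. Of the 13353 circRNAs with a value on all 6 arrays, 46.8% had their lowest value on WT 3, and so did all 6 circRNAs described here. Below, a circRNA is past both limits where its fold change exceeds 1.5 and its unadjusted p from limma is below 0.05. Of the 13460 tested circRNAs, 2.51% were past both limits toward HuD-OE and 0.483% toward WT. These were 338 and 65 circRNAs, and with other scalings 311 and 115 (quantile) or 127 and 301 (normexp with an offset of 50). No circRNA passed an adjusted p of 0.05 (limma, Benjamini-Hochberg), with 403 at an unadjusted p under 0.05 and 396 by the methods' t-test. Both counts are below a share of 0.05 of the 13460, which that limit alone would admit on average if no circRNA differed.

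All 6 circRNAs had a higher mean in HuD-OE than in WT mice, by 0.75 to 2.37 on the log2 scale. Their median log2 fold change was 1.45, and the median of all 13460 tested circRNAs was 0.15. Relative to that median the 6 differences were 0.59 to 2.21. Those past both limits were the 4 circRNAs Upf2 32914, Gigyf2 20485, Hnrnpab 23306 and Ccar1 22102, and none was lower. The share of all tested circRNAs past both limits in this direction was the 2.51% given above, and since this comparison was used to select the 6, nothing is read from their count. The groups did not overlap for 5 of the 6, with all HuD-OE values above all WT values (Fxr2 005799 on 2 HuD-OE arrays), as was the case for 7.38% of all tested circRNAs. The arrays read RNA of whole striatum, so a higher value from more cells that hold a circRNA and one from more copies per cell cannot be told apart.

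**Figure D1:**
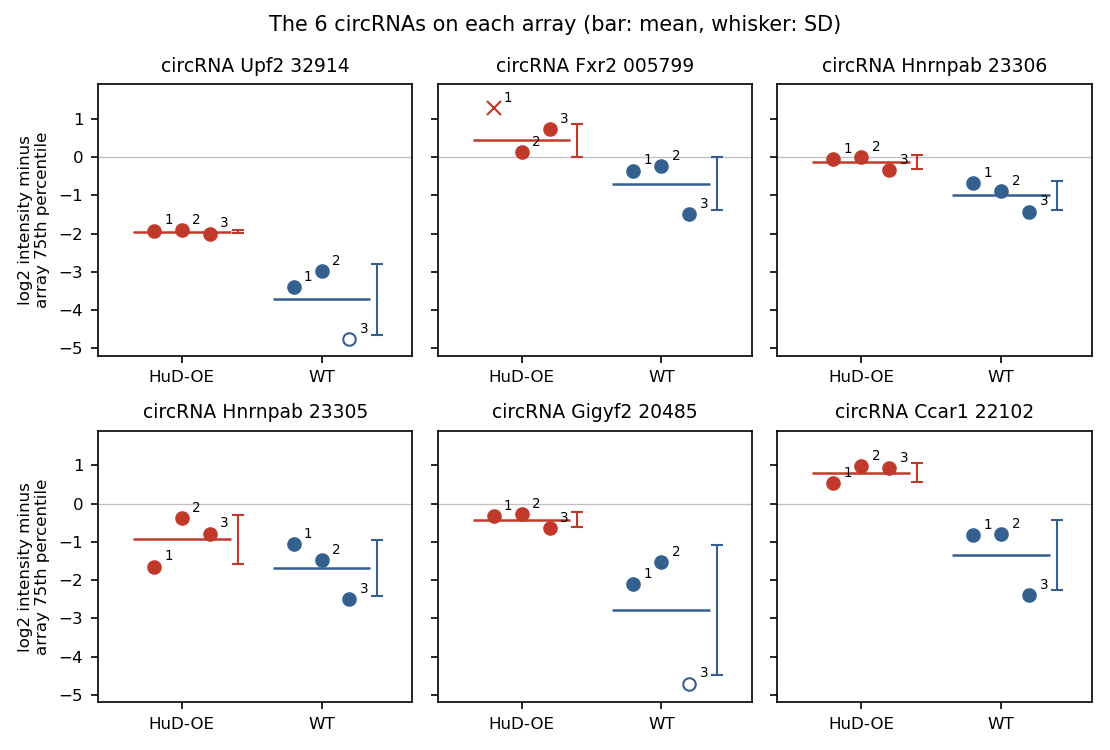
Relative log2 intensity (log2 intensity minus the array's 75th percentile) of the 6 circRNAs in HuD-OE and WT mice, 1 point per array with its replicate number, a bar at the mean and a whisker for the SD. Open circles were not well above background, and the cross is a spot marked as an outlier and left out of the mean. WT 3 is the lowest array in every panel, and only Hnrnpab 23305 has groups that overlap.

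The 2 circRNAs of decay and repression factors were Upf2 32914 and Gigyf2 20485. For Upf2 32914 the relative log2 intensity of replicates 1, 2 and 3 was -1.93, -1.92 and -2.0 with HuD-OE and -3.41, -2.99 and -4.76 with the WT genotype. The 3 HuD-OE arrays were close together, and every WT array was lower. The HuD-OE mean was -1.95 ± 0.05 (SD, n = 3) and the WT mean -3.72 ± 0.93 (SD, n = 3), a log2 difference of 1.77 (standard error 0.49) or 3.41-fold. Without WT 3 it was 1.25, or 2.38-fold. The background-corrected intensity on WT 3 was 1.60, with an error of 1.57 as the scanner software estimates it, so that this spot was not well above background. On the 3 HuD-OE arrays it was 20.6 to 33.4, and 11.4 and 16.1 on WT 1 and WT 2. In relative log2 intensity, both WT arrays on which the spot was well above background lay below all HuD-OE arrays.

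Gigyf2 20485 had the largest difference of the 6 with all arrays, but Ccar1 22102 had it without WT 3, with normexp and with quantile normalization. Its relative log2 intensity was -0.32, -0.28 and -0.65 on the HuD-OE arrays (replicates 1, 2 and 3) against -2.11, -1.53 and -4.71 on the WT arrays. The groups did not overlap, and WT 3 stood apart from WT 1 and WT 2. The HuD-OE mean was -0.42 ± 0.20 (SD, n = 3) and the WT mean -2.78 ± 1.69 (SD, n = 3), a log2 difference of 2.37 (standard error 0.76) or 5.15-fold. On WT 3 the intensity was 1.66 with an error of 1.63, not well above background, while WT 1 and WT 2 gave 28 and 44.0. Without WT 3 the log2 fold change was 1.40, or 2.64-fold. The drop from 5.15-fold to 2.64-fold came from 1 array whose spot was near its floor. By the methods' t-test, Gigyf2 20485 was not past both limits.

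Fxr2 005799 is the circRNA of a translation regulator. Its relative log2 intensity was 0.14 and 0.74 on the arrays of HuD-OE 2 and 3, against -0.35, -0.24 and -1.48 for the WT replicates. On HuD-OE 1 the spot was marked as an outlier and its value, 1.28, was left out. Every measured HuD-OE value, the omitted one included, was above every WT value. The HuD-OE mean was 0.44 ± 0.43 (SD, n = 2) and the WT mean -0.69 ± 0.69 (SD, n = 3), a log2 difference of 1.13 (standard error 0.52), or 2.19-fold. It did not pass the limit on p. With the omitted spot included, the log2 fold change was 1.41 and it passed both limits. Without WT 3 it was 0.73. The spot was well above background on all 6 arrays, with 15.5 intensity units on WT 3 as the lowest.

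The 2 circRNAs of Hnrnpab, a heterogeneous nuclear ribonucleoprotein gene, differed in how far the groups were apart. Hnrnpab 23306 read -0.05, -0.0021 and -0.34 on the HuD-OE arrays, in the order of replicates, and -0.68, -0.90 and -1.42 on the WT arrays. The groups did not overlap, and the lowest HuD-OE array lay 0.34 above the highest WT array. The HuD-OE mean was -0.13 ± 0.18 (SD, n = 3) and the WT mean -1.0 ± 0.38 (SD, n = 3), a log2 difference of 0.87 (standard error 0.36), or 1.83-fold. Without WT 3 it was 0.66 and no longer past both limits, nor was it with median centring or a fold limit of 2. Of the 6 fits with a single array left out, it passed both limits in 1, the fit without WT 1.

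Hnrnpab 23305 read -1.65, -0.37 and -0.79 with HuD-OE, in the same order, and -1.06, -1.49 and -2.51 for WT replicates 1, 2 and 3. HuD-OE 1 was below WT 1 and WT 2, so the groups overlapped. The HuD-OE mean was -0.94 ± 0.65 (SD, n = 3) and the WT mean -1.68 ± 0.74 (SD, n = 3), a log2 difference of 0.75 (standard error 0.51). The difference was about as large as the SD of each group and fell to 0.34 without WT 3. Whether the pair from this gene differ from each other in response was not tested.

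Ccar1 22102, from a gene for a nuclear coactivator, read 0.53, 0.98 and 0.92 on the arrays of HuD-OE replicates 1, 2 and 3. The WT replicates read -0.82, -0.79 and -2.40. The lowest HuD-OE array was 1.32 above the highest WT array, the widest gap of the 6. The HuD-OE mean was 0.81 ± 0.24 (SD, n = 3) and the WT mean -1.34 ± 0.92 (SD, n = 3), a log2 difference of 2.15 (standard error 0.50), or 4.44-fold. Without WT 3 it was 1.62, or 3.07-fold. The spot was well above background on all 6 arrays, at 8.22 intensity units with an error of 1.66 on WT 3. In every setting run, Ccar1 22102 passed the limits in use there.

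As a group, the 6 circRNAs had a median relative log2 intensity of -0.32, -0.14 and -0.50 on the HuD-OE arrays, in replicate order, against -0.94, -1.19 and -2.45 on the WT arrays. On HuD-OE 1 this is over 5 circRNAs, and it was -0.19 with the omitted Fxr2 spot. Each HuD-OE array was above each WT array, and WT 3 was again far below WT 1 and WT 2. The median of all tested circRNAs was -1.695 on WT 3 and -1.31 to -1.15 on the other arrays. Without WT 3, the median log2 fold change of the 6 was 0.99, and that of all tested circRNAs was -0.01. Past both limits were then 3 of the 6, Upf2 32914, Gigyf2 20485 and Ccar1 22102, and 2.00% of all tested circRNAs were higher. The part of the dim array in these differences beyond these values was not tested.

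The size of the differences also moved with background correction and with a block on the array row. With normexp background correction and an offset of 50, the log2 fold changes were 0.30 for Upf2 32914, 0.70 for Gigyf2 20485, 0.54 for Fxr2 005799, 0.43 and 0.24 for Hnrnpab 23306 and 23305, and 1.11 for Ccar1 22102. Gigyf2 20485 and Ccar1 22102 then passed both limits. The offset exceeds the 75th percentile of WT 3. The first number in each array's barcode field was taken as its row, which no label names. It is 1 for the 3 HuD-OE arrays and WT 1, and 2 for WT 2 and WT 3. With the row as a block, the values were 1.46, 1.69, 0.79, 0.55, 0.12 and 1.63 in the same order. Each is the HuD-OE mean minus WT 1, the only WT array beside HuD-OE arrays. The row and the setting aside of WT 2 and WT 3 therefore cannot be told apart. Ccar1 22102 alone passed both limits.

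**Figure D2:**
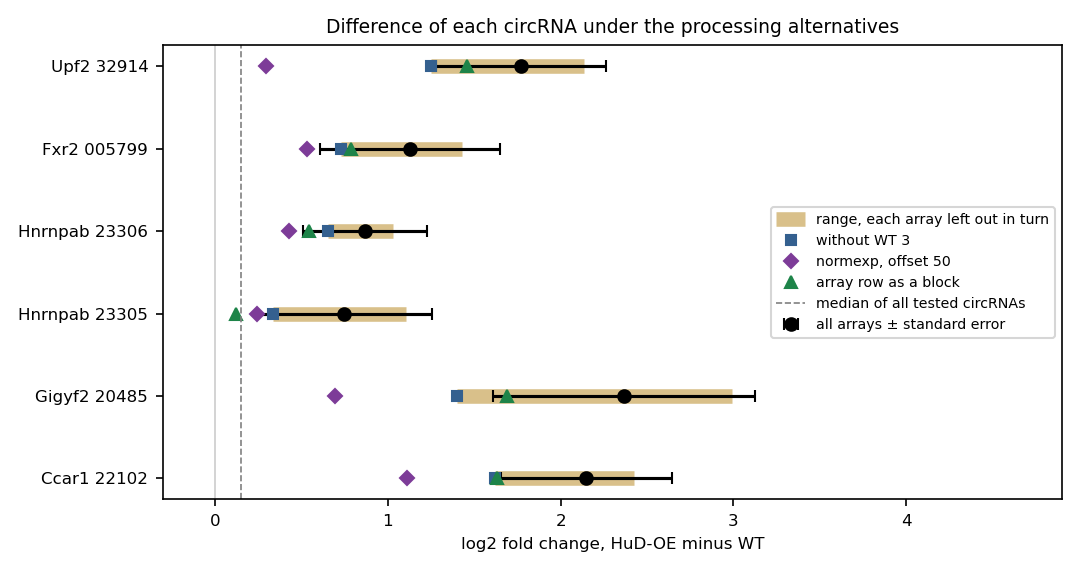
Log2 fold change (HuD-OE minus WT) of each of the 6 circRNAs, with all arrays and its standard error, over each array left out in turn, without WT 3, with normexp and an offset of 50, and with the array row as a block. All values are above 0, those with the offset are lower than with all arrays, and those without WT 3 lie at the low end of each range.

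The levels of the 6 circRNAs moved alike over the 6 arrays. Pearson's r of their profiles ran from 0.51 to 0.99 over the 15 pairs, with a median of 0.90, and with the outlier spot of Fxr2 included. These r values describe 6 arrays that include the dim WT 3 and both groups, from a set selected on these arrays. Among 711 other circRNAs with a named host gene, the 5 most like the mean profile of the 6 were Cul3 20394 (r = 0.999), Ubap2 36670 (r = 0.997), Atp2b3 45516 (r = 0.996), Myo5b 31968 (r = 0.996) and Bclaf1 21734 (r = 0.994). All 5 were named through the deposited table of higher circRNAs, which was made from the same arrays. Over all 13353 circRNAs with 6 values, the median r with that profile was 0.39.

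The other RNA-binding host genes give a wider view. Lists of 66 decay genes, 56 genes of translation and RNA granules, and 90 genes of heterogeneous nuclear ribonucleoproteins and pre-mRNA processing were compared with the bound list. On it, 53 of these genes had 73 tested circRNAs. Their median log2 fold change was 0.15, the same as for all tested circRNAs, and that of the whole bound list, 657 tested, was 0.27 (-0.016 without WT 3). Of the 73, 2 were higher past both limits, Upf2 32914 and Hnrnpab 23306, and none was lower, which makes 2.74% higher against 2.51% of all tested circRNAs. Of the 69 outside the 6 described here, 0 passed both limits and 0 had an unadjusted p under 0.05 (limma), and 46 (66.7%) were above 0, against 61.9% of all tested circRNAs and 75.2% of bound circRNAs of genes outside the lists. Without WT 3 the median of the 73 was -0.12. With each array left out in turn, the number of higher bound circRNAs of these lists ran from 1 to 10, and that of all tested circRNAs from 180 to 769.

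In the decay list, 10 bound circRNAs of 8 genes had a median of 0.32 (0.022 without WT 3), and 1 of them, Upf2 32914, passed both limits. The next were 2 circRNAs of Cnot2, a subunit of the deadenylase complex that shortens poly(A) tails, with 1.34 (standard error 0.74) for 22666 and 0.94 (standard error 0.48) for 011356. Both fell short of the limit on p and had an adjusted p of 0.866 (limma, Benjamini-Hochberg). Cnot2 22666 read -1.66, -1.73 and -0.95 with HuD-OE against -1.38, -2.46 and -4.52 for WT, so that its groups overlapped, and its WT 3 spot was not well above background. Without WT 3, Cnot2 22666 was at 0.47 and 011356 at 0.54, and without WT 1 they were at 2.04 and 1.38 and past both limits. At the other end, Rc3h2 33347 had -0.50 (standard error 0.69) and Marf1 29289 had -0.16 (standard error 0.39). Rc3h2 33347 was well above background on only 1 HuD-OE array and 2 WT arrays. Rc3h2 encodes a repressor that binds stem-loops of mRNAs.

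In the list for translation and RNA granules, 26 bound circRNAs of 21 genes had a median of 0.13 (-0.16 without WT 3), and 0 passed both limits. Beside Fxr2 005799, the most positive were 2 circRNAs of Arpp21, a gene that is high in striatal projection neurons, with 1.23 (standard error 0.70) for 018301 and 0.96 (standard error 0.72) for 45179. Without WT 3 they were 0.41 and 0.57, and without WT 1 they were 1.84 and 1.74 and past both limits. Fmr1 45495, of the gene related to Fxr2, had 0.30 (standard error 0.79), and -0.53 without WT 3. It was well above background on 2 arrays of each group. The most negative were Impact 31339 with -0.53 (standard error 0.48) and Fam120a 017352 with -0.37 (standard error 0.32).

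In the list for ribonucleoproteins and pre-mRNA processing, 37 bound circRNAs of 24 genes had a median of 0.15 (-0.11 without WT 3), and 1, Hnrnpab 23306, passed both limits. Other heterogeneous nuclear ribonucleoprotein genes on the list were Hnrnpd 39020 with 0.32 (standard error 0.43), Hnrnpr 37793 with -0.06 (standard error 0.50), and Hnrnpu with 1.51 (standard error 0.89) for 015788 and 0.51 (standard error 0.65) for 21394. Hnrnpu 21394 was well above background on only 2 HuD-OE arrays and 1 WT array. Qk 007613, of a splicing factor gene, had 1.14 (standard error 0.55). Without WT 3, Hnrnpu 015788 was at 0.36, Hnrnpu 21394 at 0.078 and Qk 007613 at 0.56. Without WT 1, Hnrnpu 015788 (2.28) and Qk 007613 (1.54) were past both limits. The most negative were Celf2 32929 with -0.53 (standard error 0.42) and Zfp106 002523 with -0.42 (standard error 0.46). None of these had an adjusted p under 0.866 (limma, Benjamini-Hochberg).

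**Figure D3:**
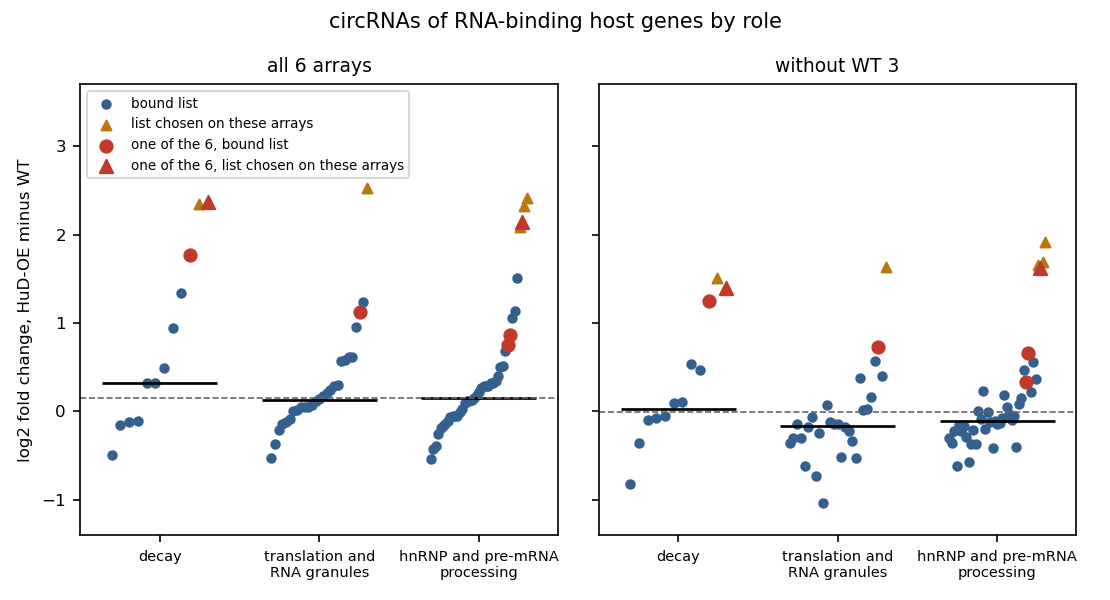
Log2 fold change (HuD-OE minus WT) of circRNAs of RNA-binding host genes, ordered within each of 3 roles, with all arrays (left) and without WT 3 (right). Circles are on the bound list, triangles come from the table the authors made from these arrays, red marks the circRNAs described here, solid bars are medians of the bound circRNAs and the dashed line is the median of all tested circRNAs, 0.15 on the left and -0.01 on the right.

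The deposited table of higher circRNAs paired 7 tested circRNAs with genes of these lists. Beside Gigyf2 20485 and Ccar1 22102 these were Ythdf3 35121, of a reader of methylated adenosine, Ubap2 36670, Cwc27 26909 and Bclaf1 21734 of pre-mRNA processing, and Rbm33 38328. Their log2 fold changes were 2.08 to 2.52, and all 7 passed both limits. By the methods' t-test Ythdf3 35121 and Gigyf2 20485 did not, and with the array row as a block Bclaf1 21734 and Ubap2 36670 were lost as well. The table was chosen on these arrays, so this is no independent evidence of direction. Ythdf3 35121 read 4.48, 4.49 and 4.20 with HuD-OE against 2.67, 3.08 and 0.37 for WT, so that WT 3 was lowest here as well. Without WT 3 the median of the 7 was 1.64, against 2.35 with it.

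Purines were frequent in the junctions of 3 of the 6 circRNAs. A and G made up 78.3% of the 60 bases in Upf2 32914 and Ccar1 22102, 71.7% in Fxr2 005799, and 60% in Gigyf2 20485 and both Hnrnpab circRNAs, against a median of 56.7% (quartiles 51.7% and 61.7%) over 726 junctions of the study's tables. The longest unbroken run of purines was 16 bases in Ccar1 22102 and 12 in Upf2 32914, where the median was 7. The hexamer GAAGAA, in capitals above, occurred at 3 positions in Upf2 32914, a pair of them overlapping, and at 1 in Gigyf2 20485, and in 12.5% of the 726 junctions. It was in 9.42% of the bound list and in 43.5% of the 69 junctions of the deposited higher table, which also had a median purine share of 65% and a median longest purine run of 12. Gigyf2 20485 and Ccar1 22102 come from that table. It was searched on the strand shown and was picked after these sequences had been seen. The letters ATTTA, the core of AU-rich elements, and TTTTT were in none of the 6 junctions, and in 4.68% and 3.31% of the 726. This says only that these 60 bases lack them, since the rest of each circle was not searched. GC content was 41.7% to 53.3%, with a median of 45% over the 726.

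The purine share was set against the difference between groups on the bound list, leaving out its 4 circRNAs described here. Over 653 circRNAs, Spearman's rank correlation of purine share with log2 fold change was 0.33 and Pearson's r was 0.34, as a description across probes that share the same 6 arrays. Without WT 3 the rank correlation was 0.16. The 32 bound circRNAs with at least 70% purines had a median log2 fold change of 0.49, against 0.26 for the 621 others. Without WT 3 these medians were 0.085 and -0.024, and with normexp and its offset 0.0997 and 0.0628. They were 0.33 and 0.16 after quantile normalization and 0.32 and 0.078 with median centring. On the array of WT 3, 53.1% of the first and 77.0% of the second were well above background. Upf2 32914, Fxr2 005799 and Ccar1 22102 fall in the range of at least 70%.

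**Figure D4:**
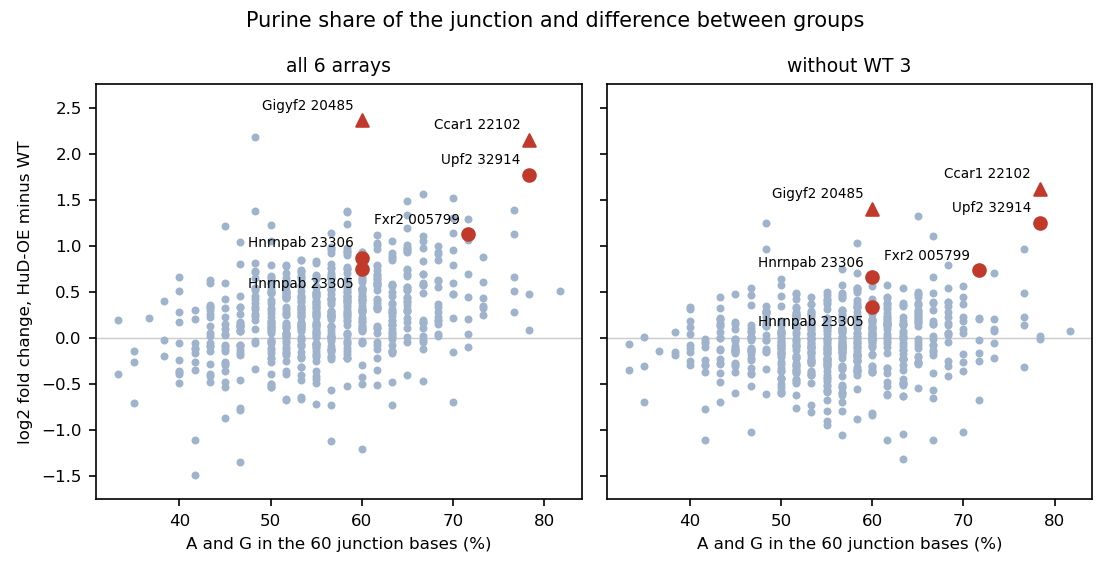
Share of A and G in the 60 junction bases (percent) against log2 fold change (HuD-OE minus WT), for 657 tested circRNAs of the bound list (small points) with the circRNAs described here in red (triangles for those not on the bound list), with all arrays (left) and without WT 3 (right). The rank correlation over the 653 others is 0.33 on the left and 0.16 on the right.

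For Gigyf2 20485 and Ccar1 22102, the deposited table lists 5 predicted miRNA partners each. All 10 had a mature sequence in the RefSeq table for GRCm38.p6, and their 10 seeds (bases 2 to 8) all differed. Of these miRNAs 1 has a seed whose complement lies in the printed bases, shown here with the seed in capitals because it pairs with the GAAGAA stretch of Gigyf2 20485.
mmu-miR-6946-3p: uUUCUUCUcuucccuuucag
The complement of this seed, AGAAGAA, occurred in 6.61% of the 726 junctions. For the other 9 miRNAs these letters were not in the 60 bases, and the rest of the circle was not searched.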

How the data were processed

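RNA from the striatum of each of 6 mice (3 per genotype) was measured on an array of its own in 1 color. The authors deposited scanner output of Feature Extraction 11.0.1.1, in which the processed intensity is a spot's background-corrected brightness with an error, not scaled between arrays. They also deposited tables of their own comparison (fold changes, p-values and 24 columns of single-sample values), from which only probe names, genes, spans, junctions and predicted miRNAs were taken, as from the bound list. The submitters' notes name limma.

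The log2 of the processed intensity minus the array's 75th percentile over non-control spots was used. Outlier spots, 31 to 106 per array, were left out and no spot was saturated. A probe was tested where at least 3 of the 6 arrays had it well above background. The linear model (lmFit, then eBayes, two-sided, no block) was fitted with limma 3.58.1 under R 4.3.3, and p was adjusted by Benjamini-Hochberg over 13460 probes. The fit was tested on simulated data. The table's start positions count from 0 in 577 of 580 circRNAs whose alias allows a check, so 1 was added. Plots were made by matplotlib 3.10.9 (Python 3.11.15).

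The 6 circRNAs and all gene lists were chosen with earlier results of these data known. Named from each role list were circRNAs past both limits, the 2 most positive and 2 most negative bound ones apart from the 6, relatives of the host genes, and the 5 with the most similar profile. Arrays give no depth, and 3 arrays per group limit the precision. Alternatives for scaling were quantiles, the median, a percentile over detected probes, and normexp with an offset of 50. Other filters, outlier spots included, a replicate block, the methods' t-test, a trended robust fit, a fold limit of 2 and leaving out single arrays were also run. Normexp without an offset, the array row as a block and quantile normalization without WT 3 were chosen after seeing the data.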

Additional observations from a re-analysis of the deposited data

How the results depend on the processing

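All 6 circRNAs stayed above 0 in the 17 alternatives that gave fold changes, with a lowest value of 0.12 for Hnrnpab 23305 with the array row as a block. The number of the 6 past both limits (4) was 2 with normexp and its offset, 2 with the filter on all 6 arrays, which drops Upf2 32914 and Gigyf2 20485, and 1 with the array row as a block. It was 5, with Fxr2 005799 added, after quantile normalization, with outlier spots kept, by the trended robust fit and with normexp without offset. Their median log2 fold change was 0.48 with normexp and its offset. Over all circRNAs, normexp with the offset gave 127 higher and 301 lower (29.7% higher instead of 83.9%), the filter on all 6 arrays 131 higher, the array row 74 and 17, and the replicate number as a block 192 higher. The number lower (65) was 115 after quantile normalization (36 without WT 3), 20 by the t-test, 39 by the trended robust fit and 140 with normexp without offset. With the filter on all 6 arrays 78 were lower, of 8513 tested, and 62.7% of those past both limits were higher. The number of higher bound circRNAs of the RNA lists (2) was 1 with median centring, normexp with offset, the filter on all 6 arrays, the replicate block, a fold limit of 2 and quantile normalization without WT 3, and 0 with the array row. With normexp and its offset the 1 was Qk 007613 (0.60), outside the 6. The number was 3 after quantile normalization, with outlier spots kept and by the trended robust fit. The list median (0.15) was -0.027 with median centring, -0.28 with the array row and -0.12 with quantile normalization without WT 3. The cause was not tested, except that by construction the stricter filter tests fewer circRNAs and the stricter limit admits fewer.

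With single arrays left out, between 180 and 769 circRNAs were higher and between 5 and 717 lower, the extremes being without HuD-OE 3 and without WT 1. These fits gave 3 to 4 of the 6 past both limits, a median of the 6 from 0.99 to 1.75, 1 to 10 higher bound circRNAs of the lists and a list median from -0.12 to 0.44. Hnrnpab 23306 passed both limits in 1 of these 6 fits, without WT 1, and Upf2, Gigyf2 and Ccar1 passed in all 6. Deviations of same-numbered arrays from their group means correlated at -0.17, -0.19 and -0.56. This gave no sign of pairing by replicate number but, with 3 arrays per group, cannot exclude it. With the replicate numbers as a block 3 of the 6 passed, without Hnrnpab 23306. The scan as a block was not run, since it would equal leaving out WT 3, which was scanned alone.

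Among named list circRNAs, signs turned with the array row for Cnot2 22666 (-0.065), Hnrnpu 015788 (-0.021) and 21394 (-0.73), Hnrnpd 39020 (-0.26), Arpp21 45179 (-0.61) and Fmr1 45495 (-0.71). With quantile normalization Hnrnpd was at -0.094 and Fmr1 at -0.16, and without WT 3 as well at -0.083 and -0.54. With normexp and its offset Hnrnpu 21394 was at -0.0053 and Fmr1 at -0.031, without the offset Rc3h2 33347 was at 0.13, and with the percentile over detected probes Hnrnpr 37793 was at 0.031. With single arrays left out, Marf1 29289 ranged from -0.38 to 0.086, Rc3h2 from -1.21 to 0.17, Hnrnpd from -0.031 to 0.61, Hnrnpr from -0.57 to 0.37 and Fmr1 from -0.53 to 0.92.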
